A study of Mus musculus with 2 samples.

Results

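The proteasome genes of the mouse were taken by symbol, as every protein-coding gene of the GENCODE annotation of mm10 whose symbol starts with Psma, Psmb, Psmc, Psmd, Psme, Psmf or Psmg followed by a number. The rule took 50 of 21851 protein-coding genes. It used no measured value. ATAC-seq, whose transposase cuts and tags accessible DNA, was used on primary T helper 2 (Th2) cells of mouse strain C57BL/6NJ. Th2 cells are the CD4+ helper T cells of type 2 immunity. There were 2 libraries of this single group, labelled biological replicates 1 and 2, with no other cell type, treatment or control. Both carry the same donor record, their sex was not collected and their age is given as unknown. The labels leave it unclear if they are separate animals, and their spread may therefore be technical only.

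The proteasome degrades proteins marked with ubiquitin. Its 20S core is a barrel of alpha subunit rings around beta subunit rings, and 3 of the constitutive beta subunits, Psmb5, Psmb6 and Psmb7, carry the proteolytic sites. In lymphoid cells and after interferon gamma, the immune subunits Psmb8, Psmb9 and Psmb10 can take their places and alter the peptides offered to CD8 T cells, while the thymic subunit Psmb11 belongs to the cortical epithelium of the thymus. The 19S particle binds and unfolds substrates, and the PA28 activators encoded by Psme1 and Psme2 dock at the ends of the core.

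A promoter was called open when regions of both replicates overlapped by at least 1 bp and each had a base within 1 kb of an annotated start of a protein-coding transcript of the gene. By this definition 47 of the 50 proteasome genes (94%) had an open promoter, against 58.1% of the 21801 other protein-coding genes. The 3 that had none were the testis subunit Psma8, the thymic subunit Psmb11 and Psme2b, an intronless copy of Psme2. A region of replicate 1 lay at 47 members, against 59.5% of the other genes, and one of replicate 2 at 47, against 60.3%. None of the 50 had a region in 1 replicate alone or regions that failed to overlap, which held for 3.47% of the other genes. The constitutive beta subunits were open in 7 of 7 genes, the immune subunits in 3 of 3 and the thymic subunit in 0 of 1.

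The open regions of the catalytic and immune subunits are shown by their sequence, because these genes encode alternative versions of the same active sites. Each stretch is 150 bases of the RefSeq assembly of GRCm38 in the direction of transcription. For Psmb5, Psmb6, Psmb7, Psmb9 and Psmb10 it is centred on the summit of replicate 1, the base with the highest signal in a region. For Psmb8 it is the stretch just before the start of the principal transcript, because the 150 bases centred on its summit held none of the letters searched. Capitals mark matches to any of 15 short sequences searched on both strands.
Psmb5, chr14:54617988-54618137, minus strand: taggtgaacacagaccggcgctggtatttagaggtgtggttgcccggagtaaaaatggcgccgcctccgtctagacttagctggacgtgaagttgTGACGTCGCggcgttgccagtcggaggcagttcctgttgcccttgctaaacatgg
Psmb6, chr11:70525267-70525416, plus strand: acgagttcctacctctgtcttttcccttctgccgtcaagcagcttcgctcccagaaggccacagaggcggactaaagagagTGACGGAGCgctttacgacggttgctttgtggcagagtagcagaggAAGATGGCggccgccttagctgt
Psmb7, chr2:38643945-38644094, minus strand: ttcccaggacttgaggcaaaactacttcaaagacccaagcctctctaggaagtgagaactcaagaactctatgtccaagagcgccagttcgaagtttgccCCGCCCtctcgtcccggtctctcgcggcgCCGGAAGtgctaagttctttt
Psmb9, chr17:34187364-34187513, minus strand: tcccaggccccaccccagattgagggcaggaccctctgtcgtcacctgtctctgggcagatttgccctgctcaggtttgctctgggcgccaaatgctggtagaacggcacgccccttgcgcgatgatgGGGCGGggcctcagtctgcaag
Psmb10, chr8:105937046-105937195, minus strand: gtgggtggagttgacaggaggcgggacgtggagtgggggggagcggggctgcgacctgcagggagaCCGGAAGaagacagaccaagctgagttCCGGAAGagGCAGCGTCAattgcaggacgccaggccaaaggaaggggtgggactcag
Psmb8, chr17:34197640-34197789, plus strand: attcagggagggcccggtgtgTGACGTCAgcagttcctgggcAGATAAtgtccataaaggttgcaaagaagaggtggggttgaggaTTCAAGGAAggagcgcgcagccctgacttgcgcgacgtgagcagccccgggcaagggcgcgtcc

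The capitals of Psmb5, Psmb6 and Psmb10 include the antioxidant element TGACNNNGC, on the reverse strand in Psmb10, and those of Psmb6 also the YY1 letters AAGATGGC. Those of Psmb7 and Psmb10 include the ETS letters CCGGAAG, and those of Psmb7 and Psmb9 the SP and KLF letters GGGCGG, on the reverse strand in Psmb7. The matches of Psmb8 were to the CREB letters TGACGTCA, the GATA letters AGATAA and the STAT letters TTCNNNGAA. A match is a description of the letters and not a bound site.

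The lists held 51557 regions in replicate 1 and 60891 in replicate 2, with median widths of 534 and 509 bp and median fold enrichments of 5.58 and 5.65. Fold enrichment is the authors' ratio of the signal at the summit to local background. Region names hold words that may refer to a cloned library, in which case the ratio would describe its inserts. How deeply each library was sequenced is not given. Whole-number pileups at the summit, recovered from the fold and the p-value, had medians of 31 in replicate 1 and 37 in replicate 2 over all regions, and of 90 and 128 over the open proteasome promoters, where they ran from 28 to 200 and from 49 to 303. Of 8 markers of Th2 cells, all 8 had an open promoter, Gata3, Il4, Il5 and Il13 among them, against 58.1% of genes outside the proteasome. Of 11 markers of other cells 2 did, Cd8b1 at 3.08 and 5.20 and Epcam at 6.70 and 7.37. Ms4a1 and Lyz2 were among those that were closed. Folds of the Th2 markers ran from 2.60 and 2.76 at Il13 to 8.20 and 9.13 at Il5. Gata3, at 5.59 and 6.53, lay below Epcam in both replicates.

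Open proteasome promoters had a median fold enrichment of 10.93 in replicate 1 and 12.72 in replicate 2, against 9.64 and 10.87 for the 12664 other open promoters. Their median widths were 1051 and 1044 bp, against 1091 and 1120 bp. Proteasome promoters thus stood somewhat higher in fold and slightly lower in width, and the ranges overlapped widely. In both replicates 34 of the 47 exceeded the median fold of the other open promoters, which 45.2% of those did themselves. Above the 75th percentile of fold in both replicates were 13 of the 47, against 20.1% of the other open promoters, and below the 25th percentile were 2, against 21.5%. For width the corresponding counts were 15 above the median in both replicates, against 42.7%, 4 above the 75th percentile, against 20.1%, and 6 below the 25th, against 18.9%. With 1 group there is no comparison of conditions and no test was run.

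**Figure D1:**
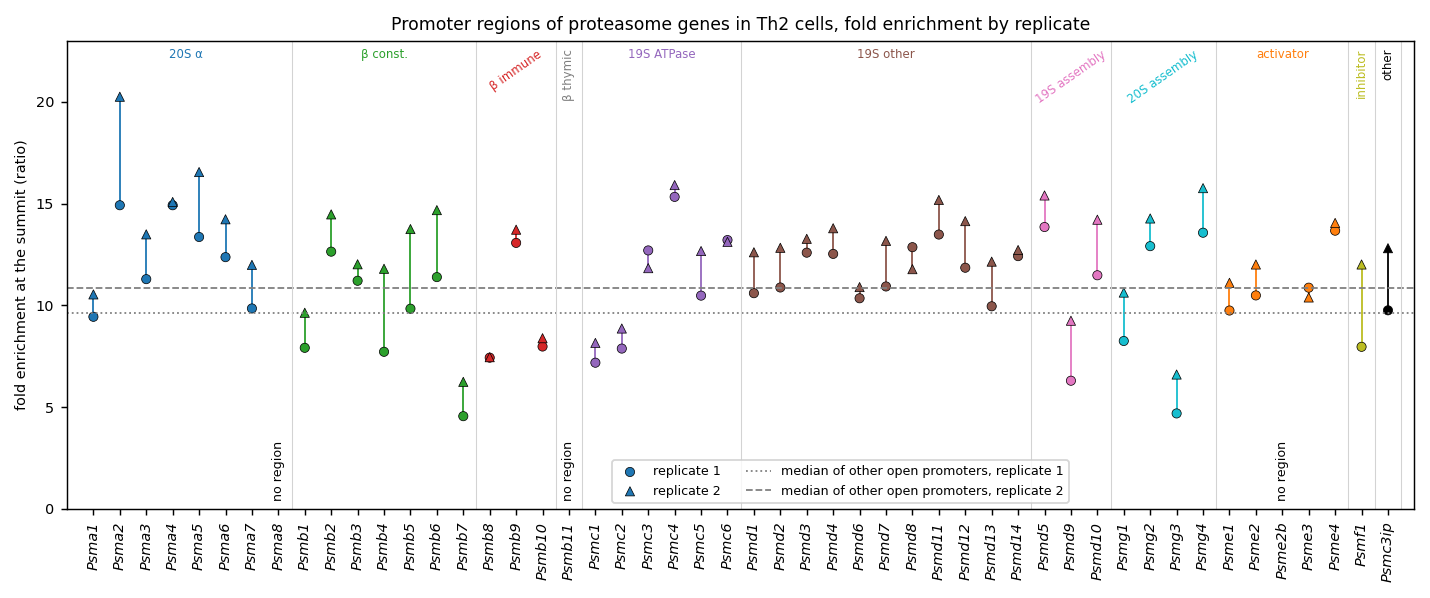
Fold enrichment (ratio, vertical axis) of the open promoter of each proteasome gene in replicate 1 (circles) and replicate 2 (triangles), joined by a line and grouped by role. Grey lines are the medians of other open promoters, 9.64 in replicate 1 and 10.87 in replicate 2, and Psma8, Psmb11 and Psme2b have no region.

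The alpha subunits, which form the outer rings and the gate of the core, were open in 7 of 8 genes, with fold enrichments from 9.44 to 14.92 in replicate 1 and from 10.54 to 20.25 in replicate 2. Psma2 had the highest mean of all proteasome genes, with 14.92 in replicate 1 and 20.25 in replicate 2, where it stood at the 99.9th percentile of other open promoters. Psma4 had 14.92 and 15.08, and Psma5 had 13.36 and 16.55. These 3 were among the 5 highest members by mean fold, and Psma1 was the lowest open alpha gene, with 9.44 and 10.54. Psma7 had the widest region of all members by the mean of both replicates, 1649 bp in replicate 1, where Psmb10 was wider, and 1849 bp in replicate 2, at a moderate fold of 9.85 and 11.99. The closed Psma8 encodes an alpha subunit of the testis, and its nearest region shared by both replicates lay 22673 bp from its start.

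The constitutive beta subunits had fold enrichments from 4.56 to 12.64 in replicate 1 and from 6.25 to 14.68 in replicate 2. Among the 3 with active sites, Psmb5, the chymotrypsin-like subunit, had 9.84 and 13.75 over widths of 996 and 806 bp. Psmb6, the caspase-like subunit, had 11.39 and 14.68 over 688 and 987 bp. Psmb7, the trypsin-like subunit, had 4.56 and 6.25 over 888 and 709 bp. Psmb7 was the lowest of all open members in both replicates, at the 8.80th and 15.4th percentiles of other open promoters, and its values in both replicates were below those of Psmb5 and Psmb6.

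The other constitutive beta subunits have no active site. Psmb1 had a fold enrichment of 7.92 and 9.64 in one of the narrowest regions, 658 and 603 bp wide. Psmb3 had 11.21 and 12.02 in a region 1336 and 1332 bp wide, the widest of the constitutive beta group. Psmb4 had 7.72 in replicate 1 and 11.80 in replicate 2, the largest ratio between replicates of all members, at 1.53. Psmb2 lay at 12.64 and 14.47, the top of the group by mean.

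The immune subunits were all open, with Psmb9 above Psmb8 and Psmb10 in both replicates. Psmb9, which takes the place of Psmb6, had 13.07 in replicate 1 and 13.72 in replicate 2. Psmb8, which takes the place of Psmb5, had 7.43 and 7.46. Psmb10, which takes the place of Psmb7, had 7.98 and 8.39. Psmb9 lay at the 84.0th and 76.7th percentiles of other open promoters and Psmb8 and Psmb10 below their median in both replicates.

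Set against its constitutive counterpart, Psmb10 was higher than Psmb7 in both replicates and Psmb8 lower than Psmb5 in both, while Psmb9 was higher than Psmb6 in replicate 1 and lower in replicate 2. No single order of immune and constitutive genes therefore held over the 3 pairs. The Psmb9 values belong to a region shared with the start of Tap1, and those of Psmb10 to summits in an intron of the gene. Between replicates the immune genes differed by ratios of 1.00 to 1.05, the constitutive beta genes by 1.07 to 1.53. Ratios that low were not particular to the immune genes, with 1.01 in Psma4 and 1.02 in Psmd14. The median ratio over other open promoters was 1.11.

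The immune regions were wide. Psmb8 covered 1431 bp in replicate 1 and 1386 bp in replicate 2, Psmb9 1517 and 1521 bp, and Psmb10 1665 and 1689 bp. In both replicates all 3 were wider than each of the 7 constitutive beta regions, which ran from 650 to 1336 bp and from 603 to 1332 bp. This pattern was seen after the values were examined and was not tested. Regions wider than every constitutive beta region in both replicates made up 23.8% of other open promoters, so single regions of this width are common.

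**Figure D2:**
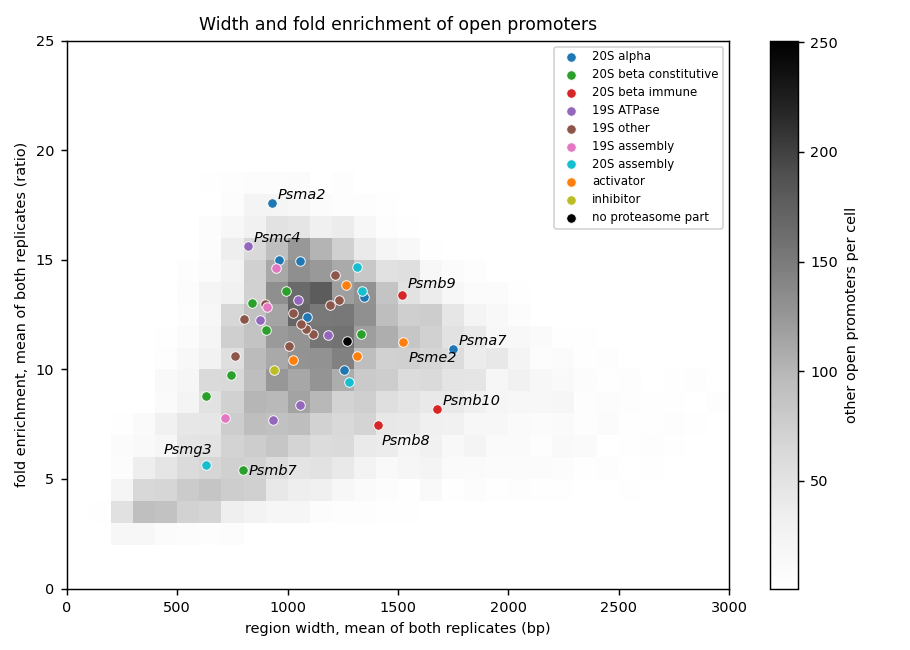
Mean width (bp, horizontal axis) and mean fold enrichment (ratio, vertical axis) over both replicates for the 47 open proteasome genes (coloured by role), over a grey count of other open promoters per cell. Psmb8, Psmb9 and Psmb10 (red) lie to the right of the constitutive beta genes (green), and Psmb7 and Psmg3 lie lowest.

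The summits of Psmb9 and Psmb10 lay apart from their principal starts, and those of Psmb8 did not. Psmb10 was the extreme case, with summits 1323 and 1324 bp downstream of its start, in an intron of the gene. Its region reached only 62 and 28 bp upstream of that start. Non-coding Psmb10 transcripts of the full annotation start 83 to 96 bp downstream of the summit of replicate 1, and the region counted as a promoter of the gene through its edge, which covers the coding start. The summits of Psmb9 lay 325 and 324 bp downstream of its principal start, in exon 1 of the transcript, and 109 and 110 bp upstream of the RefSeq start. The summits of Psmb8 lay 17 bp downstream and 77 bp upstream of its principal start and 388 and 482 bp upstream of the RefSeq start.

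In most other members the summit sat at the start. Both summits lay within 100 bp of a coding start of the basic annotation in 32 of the 47 (68.1%), against 48% of other open promoters, and within 250 bp in 44 (93.6%), against 76.2%. The regions covered a start in both replicates in all 47, against 90.7% of other open promoters. The 3 members beyond 250 bp by this set of starts were Psmb9, Psmb10 and Psme2. The full annotation has a further protein-coding Psmb9 start 220 bp downstream of the summit of replicate 1, and non-coding or decay-targeted ones 74 to 101 bp downstream. Psme2 had its summits 476 and 517 bp upstream of its own start, nearer that of Rnf31.

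**Figure D3:**
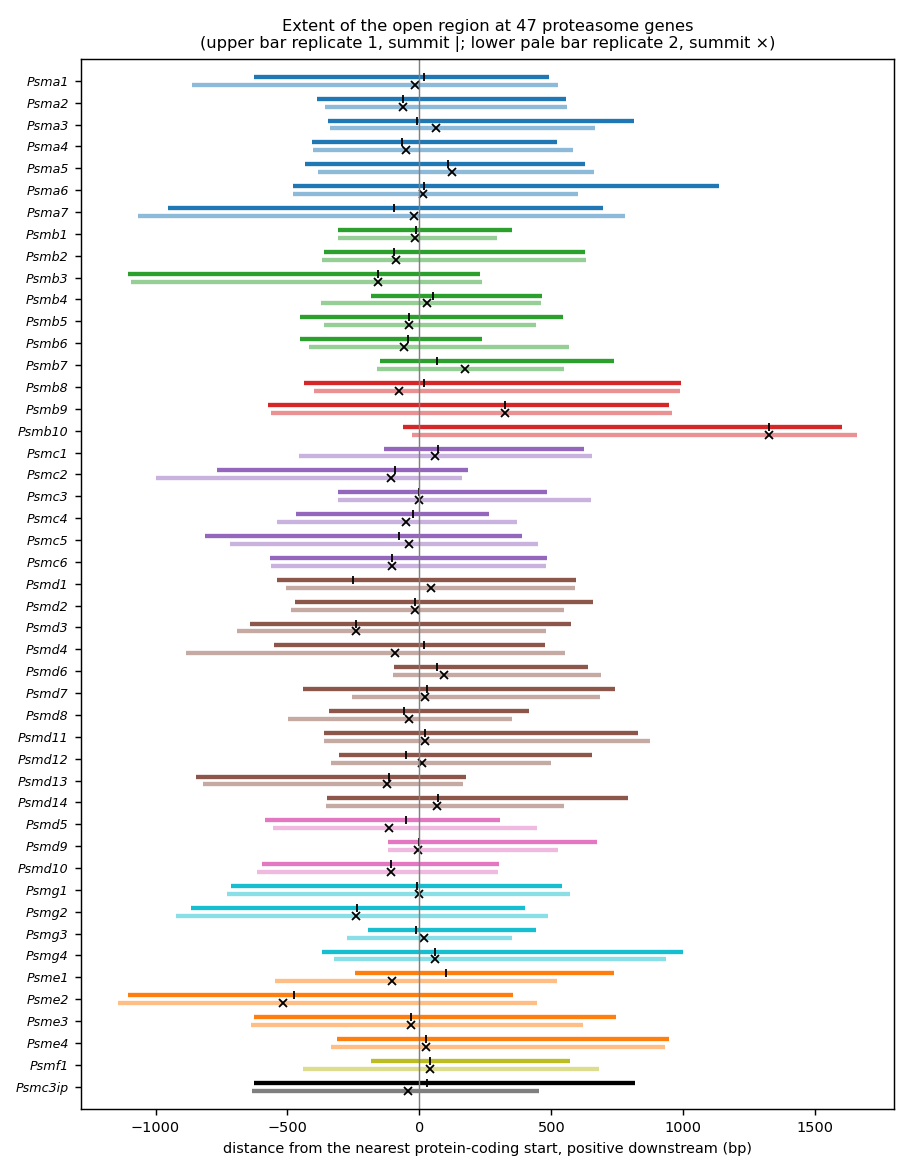
Extent of the open region at each of the 47 genes (bars) relative to the nearest protein-coding start at 0 (bp, positive downstream), with replicate 1 above replicate 2 and the summit marked. Summits of both replicates lie within 250 bp of that start except in Psmb9, Psmb10 and Psme2.

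The genes of the 19S particle were all open, 17 of 17 ATPase, base and lid genes. The ATPases Psmc1 to Psmc6, the ring that unfolds substrates, ranged from 7.19 to 15.33 in fold in replicate 1 and from 8.16 to 15.91 in replicate 2. Psmc4 was the second highest member by mean, with 15.33 and 15.91 in a region of 729 and 909 bp. Psmc1 was among the 5 lowest, with 7.19 and 8.16. Psmc3 was 1 of 4 members with a lower fold in replicate 2, with 12.70 in replicate 1 and 11.83 in replicate 2. The ATPase genes thus held some of the highest and some of the lowest folds of the proteasome.

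The other base and lid genes kept a narrower range, 9.96 to 13.48 in replicate 1 and 10.90 to 15.18 in replicate 2, over 11 genes. They include the scaffolds Psmd1 and Psmd2, the ubiquitin receptor Psmd4 at 12.53 and 13.79, and the deubiquitinase Psmd14 at 12.42 and 12.72. The highest was the lid subunit Psmd11, with 13.48 and 15.18, and the lowest by mean was the lid subunit Psmd6, with 10.35 and 10.90. All 11 folds of replicate 1 exceeded the median of other open promoters, 9.64, and all 11 of replicate 2 exceeded 10.87. Psmd8, a lid subunit, had the smallest ratio of replicate 2 to replicate 1, at 0.916, with 12.86 and 11.78.

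The assembly factors were open in 7 of 7 genes. Those of the 19S base are Psmd5, with 13.85 and 15.40, Psmd10, with 11.48 and 14.21, and Psmd9, with 6.30 and 9.25. Psmd9 was among the 5 lowest, had a ratio between replicates of 1.47 and was one of the 3 narrowest by mean width, with 791 and 645 bp. Of the chaperones that build the core, Psmg4 had 13.57 and 15.76 and Psmg3 had 4.69 and 6.61. Psmg3 was the second lowest member by mean fold and the narrowest by mean width, at 635 and 623 bp, although Psmb1 was narrower in replicate 2, so the chaperones stood at both ends of the range.

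The activators were open in 4 of 5 genes. Psme1 had 9.75 and 11.11, and Psme2 had 10.49 and 12.01 in a region of 1460 and 1587 bp, one of the 3 widest by the mean of both replicates. Psme3, a nuclear activator, had 10.87 and 10.39, a ratio of 0.955. Psme4, a nuclear activator known from spermatogenesis, had 13.67 and 14.05. The inhibitor Psmf1 had 7.97 in replicate 1 and 12.01 in replicate 2, a ratio of 1.51. Its region did not lie at the start taken as principal, the 5' end of the gene, but at another coding start, in exon 1 of that transcript. Both summits lay 41 bp downstream of the RefSeq start. Psmc3ip, which the symbol rule takes although it encodes a partner of meiotic recombinases, had 9.76 and 12.81.

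Folds were higher in replicate 2 in 43 of the 47, against 81% of other open promoters. The ratio of replicate 2 to replicate 1 had a median of 1.14, against 1.11 for other open promoters, and the members' ratios ran from 0.916 to 1.53.

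Promoters of the closed and open genes are shown by their CpG dinucleotides, in capitals, over the 150 bases before the principal start of GRCm38. Psma5 is an open example with 14 CpG. Psmb10, open through a region with its summit in an intron, has 3, and the closed genes Psmb11 and Psme2b have 2 and 3.
Psma5, chr3:108256776-108256925, plus strand: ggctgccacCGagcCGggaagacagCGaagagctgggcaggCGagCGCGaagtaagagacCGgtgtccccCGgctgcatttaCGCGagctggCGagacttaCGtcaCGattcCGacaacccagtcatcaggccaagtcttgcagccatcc
Psmb10, chr8:105938445-105938594, minus strand: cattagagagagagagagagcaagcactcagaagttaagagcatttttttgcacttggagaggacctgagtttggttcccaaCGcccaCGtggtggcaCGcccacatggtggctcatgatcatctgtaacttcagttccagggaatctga
Psmb11, chr14:54625160-54625309, plus strand: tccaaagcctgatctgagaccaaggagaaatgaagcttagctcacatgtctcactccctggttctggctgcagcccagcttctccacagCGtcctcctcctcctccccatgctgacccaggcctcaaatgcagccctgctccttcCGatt
Psme2b, chr11:48946191-48946340, minus strand: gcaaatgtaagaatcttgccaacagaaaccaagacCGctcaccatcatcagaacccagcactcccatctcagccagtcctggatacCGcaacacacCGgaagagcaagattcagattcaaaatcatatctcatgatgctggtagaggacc

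The CpG observed to expected ratio, in the window from 250 bp before to 50 bp after the principal start, had a median of 0.773 over the 50 proteasome genes and 0.546 over the other genes. Restricted to open promoters it was 0.784 for proteasome genes and 0.754 for the others, and 0.208 for other genes without an open promoter. Among the members it was lowest in Psmb11 (0.165), Psmb10 (0.249), Psmf1 (0.279) and Psme2b (0.325). Of these, Psmb10 had its summits and Psmf1 its whole region away from that start. In the 150 bp on each side of the summit of replicate 1, Psmf1 reached 1.13. Psmb10 had 0.516 there, the lowest of the open members together with Psmd3. The closed Psma8 had a ratio of 0.764, close to the median of open members, so the closed genes were not alike in CpG.

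The short sequence that differed most in percentage points between proteasome and other promoters was that of ETS factors, CCGGAAG on either strand. It is shown for 4 subunit genes of the 19S particle in which it lies before the start. Each stretch runs from 100 bp before to 50 bp after the start, with the ETS letters (or their reverse complement, CTTCCGG) in capitals.
Psmc3, chr2:91053909-91054058, plus strand: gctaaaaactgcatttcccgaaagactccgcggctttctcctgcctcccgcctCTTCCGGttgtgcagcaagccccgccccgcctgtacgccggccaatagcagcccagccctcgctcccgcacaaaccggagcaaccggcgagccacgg
Psmc6, chr14:45329688-45329837, plus strand: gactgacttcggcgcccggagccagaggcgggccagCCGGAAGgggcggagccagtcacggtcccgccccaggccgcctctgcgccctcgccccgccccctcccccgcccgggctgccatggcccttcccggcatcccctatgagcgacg
Psmd2, chr16:20651552-20651701, plus strand: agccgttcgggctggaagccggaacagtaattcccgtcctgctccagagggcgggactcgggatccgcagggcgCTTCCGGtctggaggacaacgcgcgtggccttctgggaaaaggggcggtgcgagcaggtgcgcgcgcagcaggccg
Psmd11, chr11:80428523-80428672, plus strand: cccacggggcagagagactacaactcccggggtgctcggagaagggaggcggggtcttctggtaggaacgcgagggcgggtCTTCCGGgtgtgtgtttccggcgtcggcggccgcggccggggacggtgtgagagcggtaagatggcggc

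The ETS letters occurred from 250 bp before to 50 bp after the start in 18 of the 50 proteasome genes (36%, 95% Wilson interval 24.1 to 49.9%), against 11% of other protein-coding genes. Among open promoters the shares were 34% and 17.1%, and in the 150 bp on each side of the summit 44.7% and 18.9%. Summit shares here and below are those of replicate 1. By role, 10 of 17 subunit genes of the 19S particle held the letters and 2 of 19 subunit genes of the core. At the summits of open promoters the counts were 12 of 17 and 3 of 17. This split was chosen after the values were seen and was not tested. The members of the 19S particle were Psmc1, Psmc2, Psmc3, Psmc6, Psmd2, Psmd4, Psmd6, Psmd7, Psmd11 and Psmd12, and those of the core were Psma6 and the closed Psma8. None of the 11 beta subunit genes held them in this window, although Psmb7 and Psmb10 did at their summits. The closed Psme2b also held the letters, at 49 to 55 bp before its start.

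The YY1 letters AAGATGGC occurred in 6 of the 50 (12%), namely Psma2, Psmb5, Psmb6, Psmc5, Psmd7 and Psmd11, against 2.92% of other genes, and in 12.8% of open proteasome promoters against 4.26% of other open promoters. In Psma2, Psmb6, Psmc5 and Psmd11 they lay 8 to 46 bp after the start. The antioxidant element TGACNNNGC, which is bound by Nfe2l1 and Nfe2l2, regulators of proteasome genes, was in 7 of the 50 (14%), against 12.6% of other genes, and in 14.9% of open proteasome promoters, against 14.2% of other open promoters. Psmb5 held it 12 to 20 bp and Psmb6 30 to 38 bp before the start. The share of this element in the start window was near that of other genes, while in the 150 bp on each side of the summit it was 23.4%, against 15.2% of other open promoters.

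Letters of immune and growth regulators were next compared over all genes and over open promoters. The IRF letters GAAANNGAA were in 14% of proteasome genes, against 8.43% of others, and in 14.9% of open proteasome promoters, against 7.3% of other open promoters. Within 150 bp of the summit their shares were 17% and 5.5%. The GATA letters AGATAA were in 12%, against 9.89%, in 12.8% of open ones, against 6.31%, and in 12.8% at the summit, against 3.62%. These rest on 8 and 6 proteasome promoters at the summit of replicate 1. At the summit of replicate 2, Psma4 no longer held the IRF letters and Psmb7 no longer held the GATA letters. The STAT letters TTCNNNGAA were in 10%, against 8.36%, and in 10.6% of open ones, against 6.95%. The E-box CACGTG was in 14%, against 7.77%, and in 12.8% of open ones, against 10%. The NRF1 letters GCATGCGC, of a nuclear respiratory factor and not of Nfe2l1, were in 8%, against 3.77%, and in 8.51% of open ones, against 5.24%. The CREB letters TGACGTCA were in 4%, against 2.51%, and in 4.26% of open ones, against 3.49%. At the summit the shares of STAT, E-box, NRF1 and CREB were 10.6%, 10.6%, 6.38% and 4.26%, against 5.76%, 9.91%, 5.29% and 3.26%. For each of the letters in this paragraph the 95% Wilson interval over the 50 genes, in the start window, held the share of other genes. For IRF it ran from 6.95 to 26.2%. No interval was computed for open promoters alone or for the summits.

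In the start window the remaining letters were no more frequent in open proteasome promoters than in other open promoters. The NF-Y letters CCAAT were in 36% of proteasome genes, against 38.9% of others, in 36.2% of open ones, against 38.1%, and in 40.4% at the summit, against 36.3%. The SP and KLF letters GGGCGG were in 60%, against 44.7%, but in 61.7% of open ones, against 63.7%. The AP-1 letters TGAGTCA were in 2%, against 4.47%, and in 2.13% of open ones, against 3.37%, and the heat shock letters GAANNTTC in 4%, against 7.46%, and in 4.26% of open ones, against 5.5%. The NF-kB letters GGANTTTCC and the ZNF143 letters ACTACAATT were in none of the 50, against 1.29% and 0.541% of other genes and 1.21% and 0.742% of other open promoters. Of the 3 immune subunits only Psmb8 held the STAT, GATA and CREB letters, at 56 to 64, 103 to 108 and 122 to 129 bp before its start, and none held the IRF letters.

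**Figure D4:**
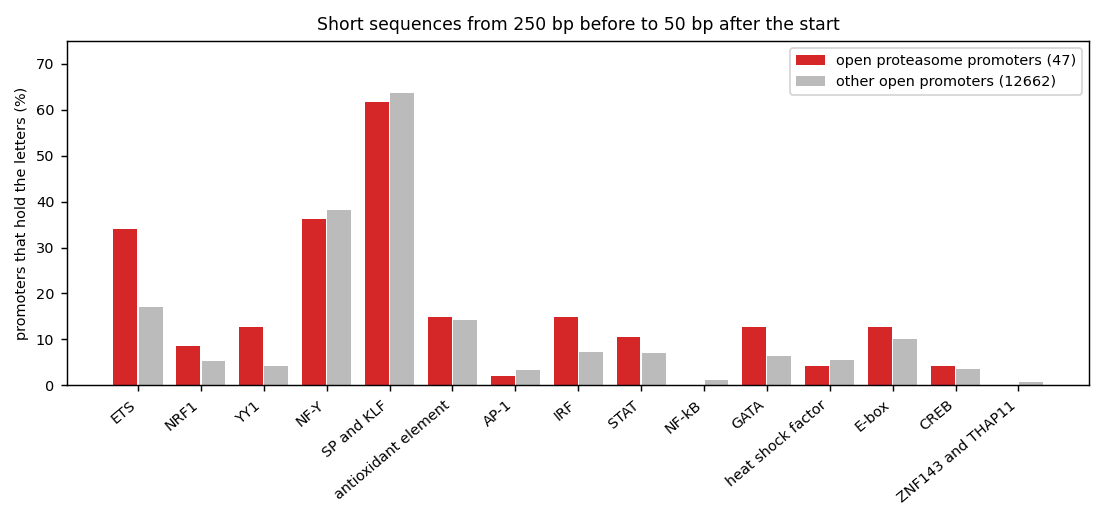
Share of promoters (%, vertical axis) that hold each of 15 short sequences from 250 bp before to 50 bp after the start, for the 47 open proteasome promoters (red, left) and 12662 other open promoters with sequence (grey, right). The ETS letters were in 34% against 17.1% and the YY1 letters in 12.8% against 4.26%.

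Several proteasome genes shared an open region with the start of another coding gene, 12 of 47, against 19.4% of other open promoters. In 10 of them the genes were head to head, against 14.3%. These pairs were Psma2 with Mrpl32 (75 bp between starts), Psma7 with Ss18l1 (76 bp), Psmb1 with Tbp (137 bp), Psmb9 with Tap1 (38 bp), Psmc2 with Dnajc2 (32 bp), Psmc5 with Ftsj3 (75 bp), Psmd10 with Atg4a (179 bp), Psmd13 with Sirt3 (99 bp), Psme2 with Rnf31 (607 bp) and Psmg2 with Cep76 (263 bp). At these genes the shared region cannot be assigned to one of the neighbours. For Psmb1 it was not the region that gave the values above, but another at the 5' end of the gene. That region had a mean fold of 7.79 over both replicates, against 8.78. Psma4 with AY074887 and Psmg3 with Gm26938 shared their regions in other orientations.

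The starts of Psmb9 and Psmb8 lie 10026 bp apart in the antigen-processing cluster of chromosome 17, with the peptide transporter genes Tap1 and Tap2. The region of Psmb9 and Tap1 had 13.07 and 13.72, that of Psmb8 7.43 and 7.46, and that of Tap2 only 3.97 and 4.83. Within Tap2 another shared region had 6.21 and 5.45, and beyond it one had 9.53 and 12.36. The strongest region of this cluster in both replicates was therefore the shared start of Psmb9 and Tap1.

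Psmb5 and Psmb11 lie 7288 bp apart on chromosome 14. No region of either replicate lay between the open promoter of Psmb5 and the start of Psmb11, or within Psmb11, and the nearest shared region to that start was the Psmb5 promoter itself, 6837 bp away. A distal region 14.7 kb downstream of the Psmb5 start, with 14.28 and 15.60, was stronger than the Psmb5 promoter in both replicates. Psme1 and Psme2 lie 12727 bp apart on the same chromosome, and between them the promoter of Emc9 had 6.58 and 9.10. Psme2b lies elsewhere, on chromosome 11, and its nearest shared region was 17519 bp away.

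**Figure D5:**
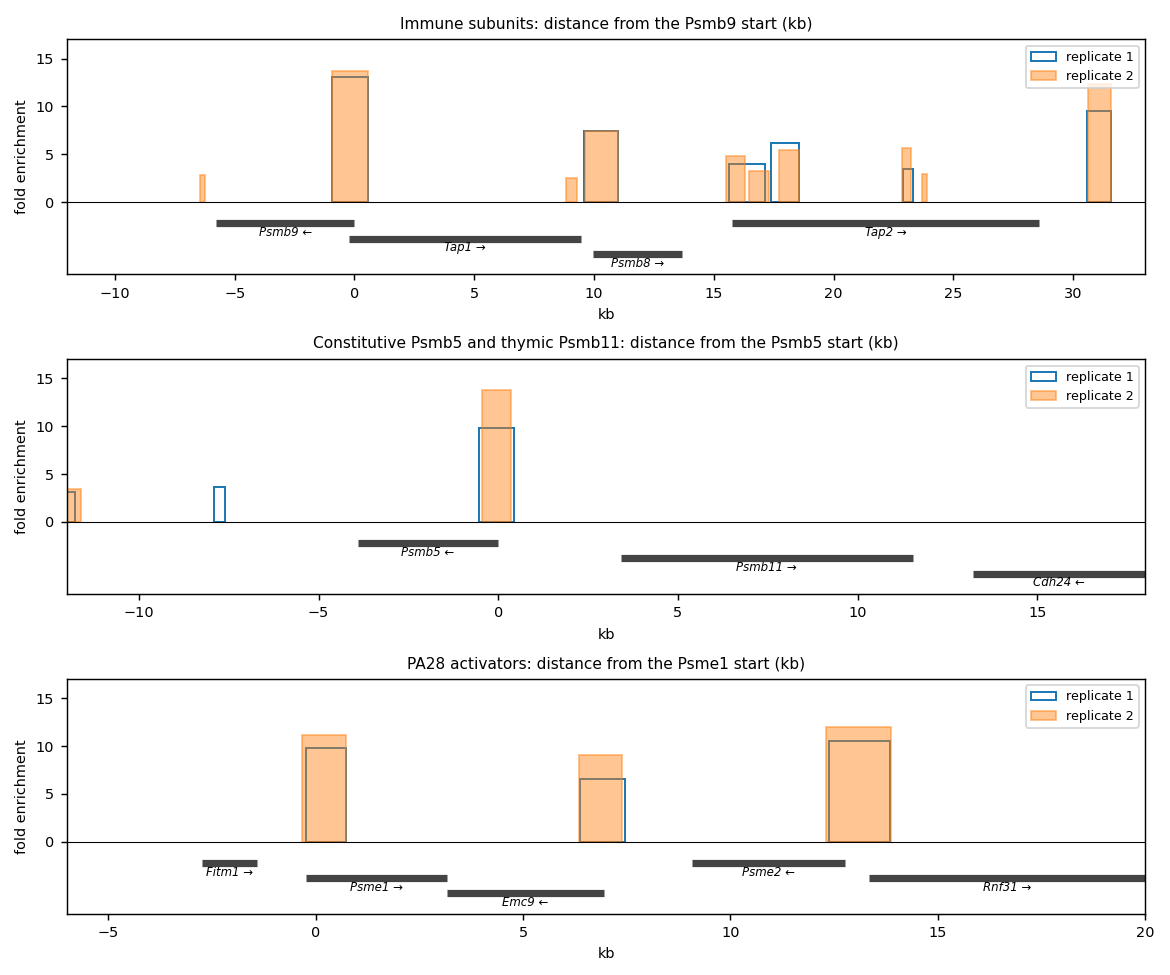
Regions of replicate 1 (outlined) and replicate 2 (filled) by position (kb from the named start, horizontal axis) and fold enrichment (ratio, vertical axis) at 3 pairs of proteasome genes, with gene extents of the full annotation drawn below and arrows for the direction of transcription. Psmb9 with Tap1 stands highest in the first panel, and no region lies at Psmb11 in the second.

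Distal shared regions, with no base within 1 kb of a coding start, occurred within the gene or 20 kb on each side at 38 of the 50 proteasome genes (76%), against 58% of other protein-coding genes. Inside the gene they were found at 6 (12%), against 31.5% of other genes. Neither share was restricted to genes with an open promoter or adjusted for gene length. Psmb7 had 9 such regions, 7 of them inside the gene, and the strongest of these had 10.69 and 13.33, above the Psmb7 promoter in both replicates. Psma6, Psme4 and Psmd9 had 2 each inside the gene, and Psmb2 and Psmc2 had 1 each.

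A list of 32 other genes of the pathway, covering further subunits, ubiquitin genes, unfolding factors, peptide transport and regulators, matched 31 in the annotation, and Paaf1 did not match. All 31 had an open promoter, against 58.1% of the protein-coding genes outside the proteasome. Tap1 is among them, through the region it shares with Psmb9, so that region is counted in both lists. The median folds of the 31 were 11.05 and 12.66, against 9.64 and 10.87 for open promoters outside the proteasome. Their median widths were 1310 and 1258 bp, against 1091 and 1120 bp. Highest were the ubiquitin-activating enzyme Uba6, with 15.85 and 15.78, and the ubiquitin ligase Ube3c, with 13.70 and 17.81, ahead of the deubiquitinase Usp14, with 12.26 and 16.31. The transporter gene Tap2, with 3.97 and 4.83, was among the 3 lowest. The proteasome regulator Nfe2l1 had 14.29 and 13.36, and the chaperone Pomp, which completes the core, had 9.91 and 10.94.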

How the data were processed

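ATAC-seq of 2 libraries of mouse Th2 cells was used as 1 list of open regions per library, each derived by the authors from 1 alignment of that library on mm10, per the file headers. Each region's fold enrichment (a ratio of summit signal to local background), −log10 p-value and −log10 q-value were deposited by the authors. A score, 10 times −log10 q with a cap, was also deposited and left unused. The sources used here do not name the aligner, peak caller, transposase shift or versions. Region names hold a time and the words ASTARR and insert, without explanation. Should the sequenced fragments come from a cloned library, the fold would describe its inserts. Depth is not stated. Pileups were solved from fold and p-value under a Poisson model with a pseudocount of 1 (tolerance 0.001 of −log10 p) in 51555 of 51557 and 60885 of 60891 regions. Intervals cover counting error only.

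Coding starts came from the GENCODE M21 basic set on GRCm38 (21 main chromosomes), and sequence from the RefSeq assembly of that build. The principal start was that of the principal transcript or, where none was marked, the 5' end of the gene. The strongest shared region within 1 kb of a start gave a gene's value. The symbol rule, roles, pathway genes, markers, named-gene rule and short sequences were chosen with earlier results of these data known. Genes given with both values are the catalytic, immune and thymic subunits, closed genes, the 5 highest and 5 lowest by mean fold, the 3 widest and 3 narrowest, and the 3 with the largest and smallest ratio between replicates. Others were named after their values were seen, and some listed genes are not reported here. No test between groups was possible with 1 group. The calls were tested on simulated data. Python 3.11.15, numpy 2.4.6, pandas 2.3.3, scipy 1.17.1 and matplotlib 3.10.9 were used. Alternatives changed distance, region part, starts, q, overlap, replicates and windows.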

Additional observations from a re-analysis of the deposited data

How the results depend on the processing

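The number of open proteasome genes was 47 under all alternatives except 2. It was 46 when the summit had to lie within 1 kb of a start, which leaves out Psmb10 and brings the immune and thymic count to 2. It was 43 when the 5' end of the gene was the only start, which leaves out Psma6, Psmd5, Psmf1 and Psmd9. The share of other genes was 56.4% and 55.5% under these 2 settings, against 58.1% in the main one. Over all alternatives that share ran from 51.8% to 60.5%. The median fold ran from 10.93 to 12.72 and the median width from 1044 to 1051 bp over the settings that leave out one replicate, against 11.85 and 1054 bp. The difference in CpG ratio between proteasome and other genes was 0.228. It fell to 0.0306 against open promoters alone and to 0.000222 in the 150 bp on each side of the summit, so it rests on closed genes among the others. Of 30 alternatives for the shares of short sequences 4 were counted as moved beyond the counting interval. The SP and KLF difference then stood at -2.03 and -3.36 percentage points. The other moves concerned the ZNF143 letters, which no proteasome promoter held, from -0.541 to -0.719 and -0.742 percentage points. They follow from the rule, because with no promoter holding the letters any more negative difference counts as moved. No paired analysis was possible because there is only 1 group. Weak regions such as that of Psmg3, with summit pileups of 28 and 49, are the least precise.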
